A study of Mus musculus with 8 samples.

Results

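The proneural and neurogenic factors *Neurog2*, *Neurod4*, *Atoh7*, *Olig2*, *Insm1*, *Hes6*, *Dlx1* and *Dlx2* were taken by symbol from a count table of 28432 mouse genes, and all 8 were among the 13891 genes with enough reads to be tested. RNA was sequenced from whole retinas at E15.5, with 4 *Lhx2* CKO embryos and 4 control embryos, and each sample was both retinas of 1 embryo. The CKO embryos were *Lhx2* flox/- and carried 1 *Hes1* CreERT2 allele, a tamoxifen-dependent Cre made in cells that use the *Hes1* promoter, which in this tissue are mainly retinal progenitor cells. The control embryos were *Lhx2* flox/+ with the same *Hes1* CreERT2 allele, so both genotypes had CreERT2 at *Hes1* and both could lose the floxed *Lhx2* copy in recombined cells. By the study's breeding scheme all embryos also had a *Rosa26* ai14 reporter, and all dams were gavaged with 0.15 to 0.2 mg of tamoxifen per g of weight at E11.5. Embryos were picked at dissection by reporter fluorescence, and CKO embryos were told from controls partly by their small eyes, with genotypes checked by PCR. Within a genotype the 4 embryos came out of 3 litters, dissected 1 day apart at most, and which litter gave which sample is not stated in the sources used here.

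In the developing vertebrate retina, multipotent progenitor cells leave the cell cycle over time and become neurons of each type in an overlapping order. Basic helix-loop-helix (bHLH) proneural factors start this step: they bind E-box DNA sites together with E protein partners and switch on neuronal genes and Notch ligands. Notch signaling in neighboring cells induces Hes repressors, which keep proneural genes low, and Id proteins hold E proteins away from DNA. *Neurog2* and *Atoh7* are proneural bHLH genes of early neurogenic progenitors, and *Atoh7* is needed for most retinal ganglion cells in the mouse. *Neurod4* acts in newly forming neurons, and *Olig2* marks progenitors close to their last division. *Insm1* encodes a zinc finger factor of neurogenic progenitors, *Hes6* encodes a Hes family member that opposes Hes1, and *Dlx1* and *Dlx2* are neighboring homeobox genes used in ganglion, amacrine and horizontal cells.

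Of the 8 genes, *Neurod4* rose in the CKO retina and the other 7 did not pass the test at the study's cutoff, an adjusted p below 0.001 (edgeR quasi-likelihood test). *Neurod4* was 1.36-fold higher in CKO. At a looser cutoff of 0.05, *Insm1* was also higher, and *Atoh7*, *Hes6* and *Dlx2* were lower. *Neurog2*, *Olig2* and *Dlx1* passed neither cutoff. The share of all tested genes that passed at 0.001 was 8.61%, with 3.64% higher and 4.97% lower in CKO, and at 0.05 it was 33.3%, with 15.9% higher and 17.4% lower. None of the 8 fell at 0.001 by edgeR, and 3 were lower at an unadjusted p below 0.05. Over all 13891 genes tested, 3102 were lower and 2953 higher at that unadjusted cutoff. DESeq2 and limma voom each called 0 falls among the 8 at 0.001, where they called 17.2% and 8.44% of all genes in either direction. The median log2FC (CKO over control) of the 8 genes was -0.02, beside 0.01 over all genes tested.

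Sequences from before a RefSeq start of 4 of the 5 genes that differed at 0.05 are shown with the E-box CANNTG, the site class that bHLH proteins bind, in capitals. They are the 250 bases before the RefSeq start (GRCm38.p6), except for *Atoh7*, where the stretch stops just before its annotated transcript. For *Hes6* the stretch ends where the main protein-coding transcript begins and lies inside the outer bounds of the gene, because a noncoding transcript begins further upstream.
Neurod4, chr10:130280255-130280504, minus strand: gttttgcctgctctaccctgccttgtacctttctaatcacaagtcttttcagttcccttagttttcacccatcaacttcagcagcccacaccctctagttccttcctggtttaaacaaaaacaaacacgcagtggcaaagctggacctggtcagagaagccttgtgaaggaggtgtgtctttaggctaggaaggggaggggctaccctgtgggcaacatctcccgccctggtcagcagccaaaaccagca
Atoh7, chr10:63099535-63099650, plus strand: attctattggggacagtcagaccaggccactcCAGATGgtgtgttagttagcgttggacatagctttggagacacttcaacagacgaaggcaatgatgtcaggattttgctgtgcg
Hes6, chr1:91413223-91413472, minus strand: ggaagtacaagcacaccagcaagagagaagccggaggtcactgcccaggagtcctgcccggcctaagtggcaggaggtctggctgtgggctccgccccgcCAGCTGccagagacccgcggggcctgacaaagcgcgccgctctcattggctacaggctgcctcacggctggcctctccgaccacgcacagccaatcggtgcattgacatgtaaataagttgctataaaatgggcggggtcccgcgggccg
Dlx2, chr2:71546755-71547004, minus strand: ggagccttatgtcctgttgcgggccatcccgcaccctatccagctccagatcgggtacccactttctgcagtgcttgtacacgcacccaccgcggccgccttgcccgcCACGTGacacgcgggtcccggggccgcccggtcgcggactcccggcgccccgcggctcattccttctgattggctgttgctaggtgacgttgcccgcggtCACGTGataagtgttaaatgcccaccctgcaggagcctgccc
Promoter entries were found for 7 of the 8 genes, all but *Insm1*. CANNTG, searched on both strands, was present in 3 of these 7, *Atoh7*, *Hes6* and *Dlx2*, and 66.2% of 32851 mouse promoters of the same length held it. The 7 genes had 9 promoter entries, and for each motif a gene counted if any of its entries held it. The shares over all promoters are by single entry, so the 2 are not on the same footing. The stretch of *Neurod4* held no E-box, that of *Dlx2* held 2 copies of CACGTG, 142 and 42 bases before the start, and *Hes6* held 1 copy of CAGCTG. A second RefSeq start of *Hes6*, at the outer end of the gene, has 3 E-boxes in its own 250 bases, not shown, and *Atoh7* has a further 2 past the end of the stretch shown. The exact form CACGTG was looked for after the values were seen, and 6.02% of promoters held it. TAATTA, the core of many homeodomain sites including those of LIM proteins such as Lhx2, was in none of the 7, and in 4.84% of all promoters. CACNAG, the N-box of Hes proteins, searched on both strands, was in *Neurod4*, *Hes6* and *Dlx1*, and in 36.7% of promoters. That the genes with an E-box here are the 3 lower ones is a description noticed after their values were seen.

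The 8 genes lie on 5 chromosomes in GRCm38 (GENCODE M21). *Neurog2* (ENSMUSG00000027967) is on chromosome 3 at 127633135 to 127635631 with 2 exons, *Neurod4* (ENSMUSG00000048015) on chromosome 10 at 130268152 to 130280240 with 2 exons, and *Atoh7* (ENSMUSG00000036816) on chromosome 10 at 63099651 to 63101279 with 1 exon. *Olig2* (ENSMUSG00000039830) is on chromosome 16 at 91225457 to 91228677 with 2 exons, *Insm1* (ENSMUSG00000068154) on chromosome 2 at 146221921 to 146225020 with 1 exon, and *Hes6* (ENSMUSG00000067071) on chromosome 1 at 91411483 to 91414038 with 4 exons. *Dlx1* (ENSMUSG00000041911) and *Dlx2* (ENSMUSG00000023391) are on chromosome 2 at 71528113 to 71533981 and 71543408 to 71546754, face opposite strands, have 3 exons each and lie 9426 bases apart. An antisense gene, *Dlx1as*, shares 335 exon bases (6.21%) with *Dlx1*. The libraries do not keep strand, so reads there cannot be told apart, and *Dlx1as* had 59 reads over the CKO samples and 67 over the controls.

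**Figure D1:**
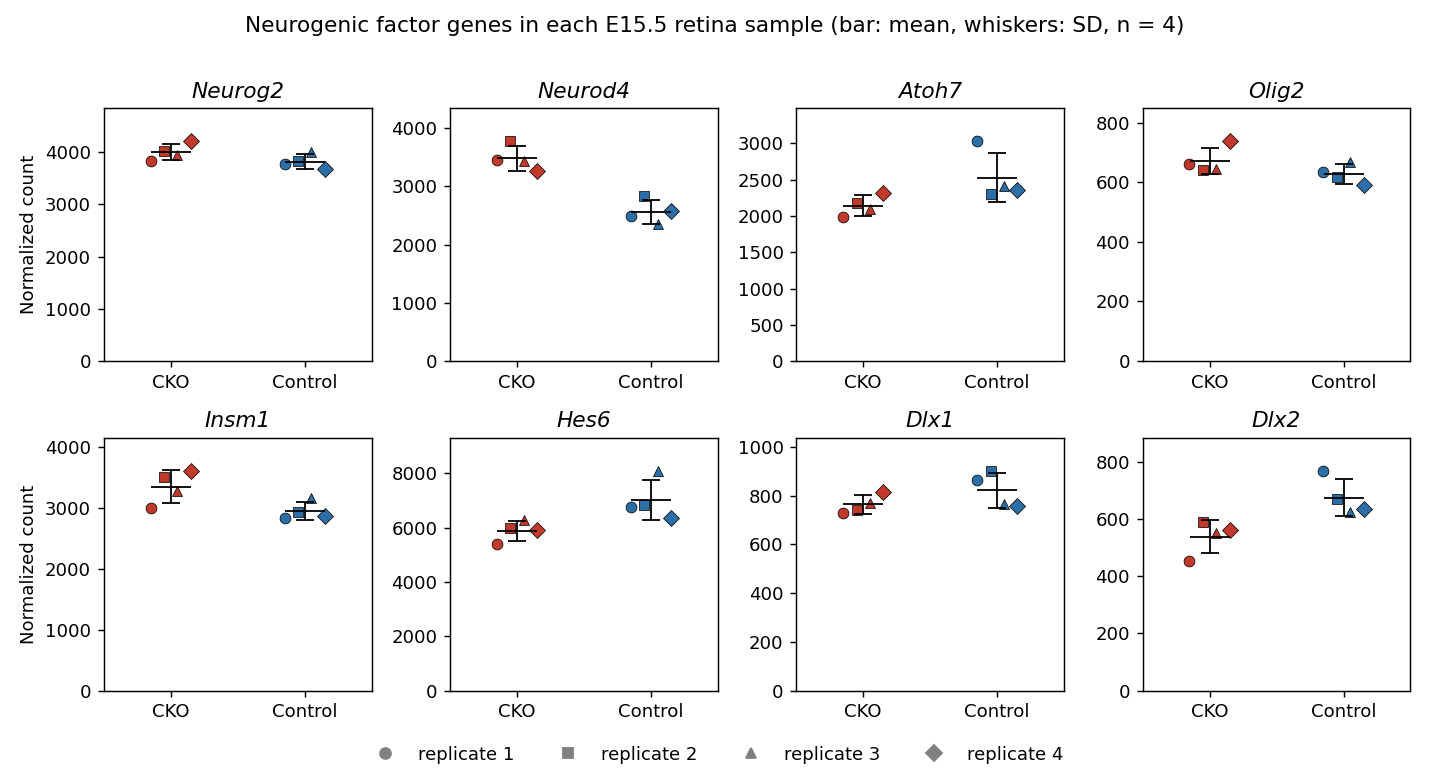
Normalized counts of the 8 neurogenic factor genes (y axis, counts divided by size factors) in each E15.5 retina sample, CKO left and control right; symbols are replicates, the bar is the mean and whiskers are the SD over 4 samples. Only *Neurod4* has every CKO sample above every control sample, and *Hes6* and *Dlx2* have every CKO sample below.

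Sequencing depth was 13955259 to 19099937 counts in the CKO samples and 13143587 to 15063867 in the controls, and the 8 genes had 503 to 7080 reads per sample. The targeted gene *Lhx2* had 2557, 2765, 2853 and 2868 normalized counts in CKO and 3478, 3081, 3631 and 3138 in control, with no overlap. Its reads also come from exons outside the deleted ones, so this level checks neither deletion nor labels. By principal component analysis the genotypes parted on the first axis (49.4% of variance), and the second axis (17.6%) set CKO replicate 1 and control replicate 3 apart at opposite ends. The whole tissue is a mixture of progenitors and new neurons, and in bulk RNA fewer cells of a type and less RNA per cell cannot be told apart. Of 10 progenitor markers, 1 rose, 7 fell and 2 did not pass, with a summed level of 52015 to 60580 normalized counts in CKO and 92569 to 103817 in control, and *Sfrp2* was the marker that rose. *Ccnd1* was the largest part of both sums (16712 to 22183 in CKO, 41884 to 49770 in control). *Fgf15* was at 1613 to 2468 in CKO and 14427 to 17040 in control. *Six3* and *Pax6* did not pass (edgeR log2FC 0.01 and 0.13). By staining at E15.5, the paper reports that dividing progenitors were still abundant in CKO. Of 8 ganglion cell markers, 4 rose and none fell, with a sum of 51675 to 55354 in CKO and 37215 to 44370 in control. Markers of photoreceptor precursors did not pass in either direction (0 of 5, 9861 to 10955 in CKO and 9709 to 10715 in control). Of 6 amacrine and horizontal cell markers *Lhx1* alone rose and 0 fell, with a sum of 4421 to 5265 in CKO and 4034 to 4833 in control. *Ptf1a* of that list was lower without overlap, at 127 to 208 in CKO and 269 to 315 in control. It did not pass 0.001 (log2FC -0.73, edgeR adjusted p = 0.00128). Of 9 hypothalamic markers 3 rose (*Otp*, *Rfx4* and *Sim1*, chosen here after their values were seen) while the defining *Nkx2-1*, *Nkx2-4*, *Hmx2*, *Hmx3* and *Nr5a1* stayed at 0 to 6.03, and the sum was 316 to 533 in CKO and 54.4 to 129 in control. Of 5 endothelial markers 4 were tested and *Kdr* and *Cldn5* fell, with a sum of 2599 to 3361 in CKO and 4291 to 4558 in control, most of it *Kdr*, which retinal progenitors also use; *Cdh5* (27.0 to 111 in CKO, 37.7 to 109.8 in control) and *Pecam1* did not pass. Of 8 pigment epithelium markers 4 were tested and *Pmel* fell, with a sum of 81.8 to 130.2 in CKO and 236 to 412 in control. Of 8 markers of periocular mesenchyme 2 were tested and 1 fell, with a sum of 38.9 to 115 in CKO and 94.2 to 171 in control. The part of these mixtures in the results on the 8 genes was not tested.

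*Neurod4* encodes a bHLH factor that in the mouse helps to specify amacrine and bipolar cells. It had 3460, 3776, 3435 and 3265 normalized counts in CKO replicates 1 to 4, and 2488, 2831, 2355 and 2581 in control replicates 1 to 4. All 4 CKO samples lay above all 4 controls, as they did for 15.9% of all genes tested. The genotypes did not overlap, in either direction, for 3 of the 8 genes and for 33.8% of all genes. The means were 3484 ± 213 in CKO and 2564 ± 201 in control (SD, n = 4 each), with a log2FC of 0.44 (SE 0.0651, 95% interval 0.30 to 0.59, edgeR adjusted p = 3.9e-04). DESeq2 and limma voom also called the rise. With 1 sample left out the log2FC was 0.41 to 0.51, but the gene no longer passed 0.001 without CKO replicate 2 or 3 or without control replicate 1 or 4 (edgeR adjusted p = 0.00162, 0.00152, 0.00200 and 0.00155).

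The 7 other genes each had their own pattern. *Neurog2* had 3831, 4027, 3944 and 4203 normalized counts in CKO and 3765, 3831, 3997 and 3670 in control. The sets overlapped, and the log2FC was 0.07 with a 95% interval of -0.03 to 0.17 (edgeR adjusted p = 0.271). *Atoh7* had 1981, 2179, 2101 and 2317 normalized counts in CKO, and 3030, 2308, 2417 and 2358 in control. All CKO samples but replicate 4 were below every control sample, and control replicate 1 stood well above the other controls. Its log2FC was -0.24 (SE 0.0834, interval -0.42 to -0.05, edgeR adjusted p = 0.0480). Without control replicate 1 the log2FC was -0.14 (edgeR adjusted p = 0.0944), and over all 8 fits with 1 sample left out the adjusted p was 0.0411 to 0.106, above 0.05 without CKO replicate 1, 2 or 3 or control replicate 1.

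*Olig2* had 663, 643, 643 and 737 normalized counts in CKO and 634, 618, 668 and 590 in control. The groups overlapped, with a log2FC of 0.10 and an interval of -0.05 to 0.24 (edgeR adjusted p = 0.275). *Insm1* had 2989, 3507, 3277 and 3603 in CKO and 2828, 2923, 3152 and 2855 in control. CKO replicate 1 lay within the controls and the other CKO samples lay above them all; the log2FC was 0.19 (SE 0.0599, edgeR adjusted p = 0.0319). With 1 sample left out its adjusted p was 0.00758 to 0.101 by edgeR, above 0.05 without CKO replicate 2, 3 or 4 or control replicate 1 or 4. Markers of glia and oligodendrocyte precursors, cells that use *Olig2* elsewhere in the nervous system, summed to 300 to 588 normalized counts in CKO and 261 to 336 in control. Of 4 tested, 0 rose and 1, *Pax2*, fell. Most of the CKO sum was *Pdgfra*, at 193 to 467 in CKO and 64.4 to 174 in control (log2FC 1.27, edgeR adjusted p = 0.0155). *Aldh1l1* was lower (log2FC -0.44, edgeR adjusted p = 0.0213), and *Sox10* was at 0 to 2.13 in CKO and 0 to 4.57 in control.

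*Hes6* had 5378, 5985, 6259 and 5904 normalized counts in CKO and 6764, 6828, 8083 and 6350 in control. Every CKO sample was below every control sample, and control replicate 3 was the highest sample of all. Its log2FC was -0.25 (SE 0.0742, edgeR adjusted p = 0.0227). Leaving out control replicate 3 gave -0.18, leaving out CKO replicate 1 as well gave -0.14, and the adjusted p was above 0.05, at 0.0532 and 0.0513 without CKO replicate 1 or 4 alone (edgeR). *Dlx2* had 454, 591, 550 and 560 normalized counts in CKO against 768, 671, 623 and 636 in control. The groups did not overlap, with CKO replicate 1 lowest, and the log2FC was -0.33 (SE 0.0906, edgeR adjusted p = 0.0169). All CKO samples lay below all controls for 2 of the 8 genes, and for 17.9% of all genes tested. *Dlx1* had 728, 743, 769 and 816 in CKO, and 866, 902, 766 and 756 in control, with overlap and a log2FC of -0.11 (interval -0.26 to 0.05, edgeR adjusted p = 0.284). Of 7 markers of the telencephalon, where *Dlx1* and *Dlx2* are also used, 3 were tested and none passed at 0.001, and *Emx1*, *Emx2*, *Gsx2* and *Lhx6* were at 0 to 4.27 normalized counts. The sum, 1576 to 1971 in CKO and 1430 to 1546 in control, was mostly *Eomes* (1433 to 1783 in CKO, 1314 to 1432 in control), and *Tbr1* was at 25.2 to 103 in CKO and 5.06 to 10.4 in control, without overlap (edgeR log2FC 2.61, adjusted p = 0.00325). Retinal ganglion cells use *Eomes* and *Tbr1* too, and the part of these cells in the *Dlx1* and *Dlx2* values was not tested.

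Levels of different genes were compared as RPKM, reads per kb of exon scaled to the total counts of the sample and computed here from the deposited counts. On this scale the order of levels in CKO retinas was *Hes6* (212 ± 12.6), *Neurog2* (117 ± 3.59), *Atoh7* (85.6 ± 4.83), *Insm1* (70.2 ± 5.01), *Neurod4* (67.8 ± 3.93), *Olig2* (17.3 ± 1.10), *Dlx2* (12.3 ± 1.24) and *Dlx1* (9.21 ± 0.43; SD, n = 4). In CKO only *Insm1* and *Neurod4* were neighbors whose samples overlapped. In control retinas *Hes6* was at 257 ± 29.0, *Neurog2* at 113 ± 4.91, *Atoh7* at 103 ± 13.5, *Insm1* at 62.8 ± 3.52, *Neurod4* at 50.7 ± 4.04, *Olig2* at 16.4 ± 0.94, *Dlx2* at 15.6 ± 1.5 and *Dlx1* at 10.1 ± 0.92. There, *Neurog2* and *Atoh7* overlapped, as did *Olig2* and *Dlx2*, whereas *Insm1* and *Neurod4* did not. The order of the 8 was the same in both genotypes.

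**Figure D2:**
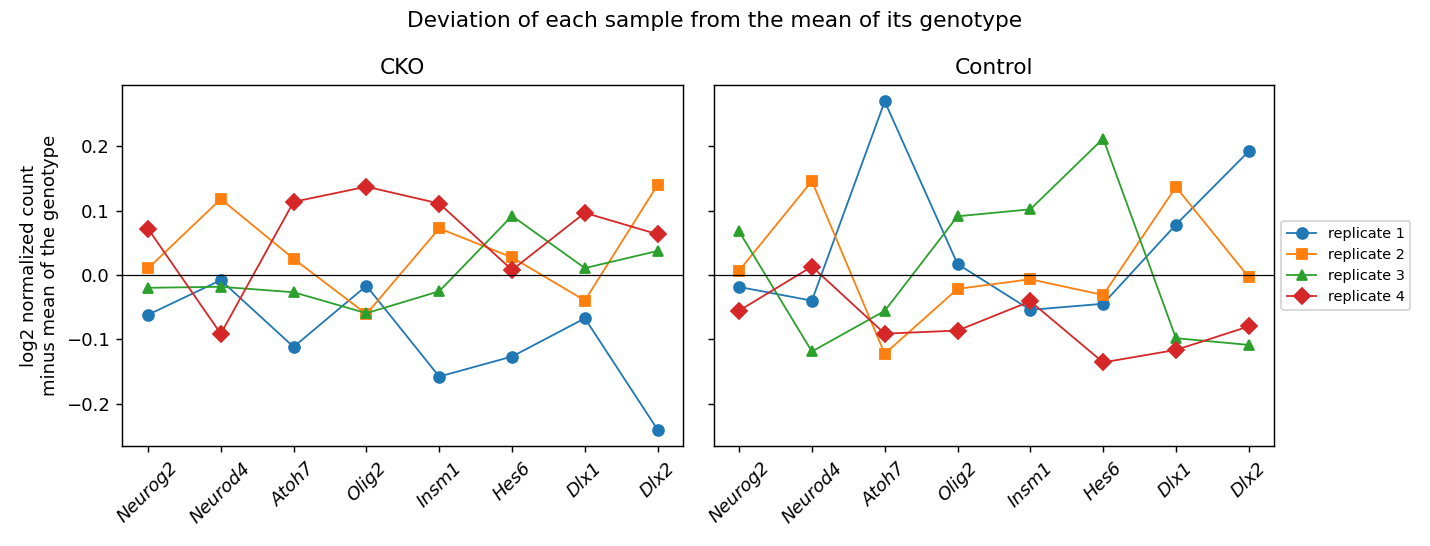
Deviation of each sample's log2 normalized count from the mean of its genotype (y axis) for the 8 genes (x axis), CKO left and control right, 1 line per replicate. CKO replicate 1 is lowest for 6 genes, and control replicate 3 is highest for 4 genes and lowest for 2.

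CKO replicate 1, which stood apart on the second principal component, was below the CKO mean for all 8 genes and the lowest CKO sample for 6 of the 8 genes, all but *Neurod4* and *Olig2*, and CKO replicate 4 was above the mean for 7 and the highest for 5. Control replicate 3 was the highest control for *Neurog2*, *Olig2*, *Insm1* and *Hes6* and the lowest for *Neurod4* and *Dlx2*. The coefficient of variation was 3.92% to 11.02% in CKO and 3.61% to 13.3% in control, widest for *Dlx2* in CKO and *Atoh7* in control and narrowest for *Neurog2* in both. Without CKO replicate 1 and control replicate 3, *Insm1* had a log2FC of 0.27 (edgeR adjusted p = 2.5e-04) and joined *Neurod4* as a rise. The samples left out are the lowest CKO sample and the highest control for *Insm1*. Leaving them out therefore widens its difference by construction, and the call is no support for a rise. That fit called more genes in general, with 1042 rises of 13678 genes tested against 505 of 13891 with all samples.

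Ratios of 2 genes within a sample cancel its depth, and pairs were compared by an exact permutation test of CKO against control over the 8 samples (two-sided), where p cannot go below 0.0286, with Benjamini-Hochberg adjustment over the 6 pairs computed, of which 5 are given. The log2 ratio of *Atoh7* to *Neurog2* was -0.90 ± 0.04 in CKO and -0.60 ± 0.20 in control (SD, n = 4; difference -0.30, exact p = 0.0286, adjusted 0.0429), and the samples did not overlap. The ratio of *Neurod4* to *Neurog2* was -0.20 ± 0.12 in CKO and -0.58 ± 0.14 in control (difference 0.38, exact p = 0.0286, adjusted 0.0429), again with no overlap. For *Hes6* over *Insm1* it was 0.82 ± 0.10 in CKO and 1.248 ± 0.085 in control (difference -0.43, exact p = 0.0286, adjusted 0.0429). These 3 differences are each larger than the SD within either genotype. The control ratios of *Atoh7* to *Neurog2* ran from -0.73 to -0.31, though, a wider range than the difference of -0.30. An exact p of 0.0286 shows only that the samples of the genotypes did not overlap, and the adjusted p depends on how many pairs reach this floor. The adjusted value of 0.0429 thus also rests on the pair not given, and cannot be rebuilt from the 5 given. Single genes did not overlap for 33.8% of all genes tested, and the share over other pairs was not computed. Each pair difference follows from the changes of its 2 genes given above and is not separate support for them. *Hes6* and *Neurod4* already did not overlap as single genes.

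*Olig2* over *Neurog2* differed by 0.03 (exact p = 0.457, adjusted 0.457), with a 95% t interval from the pooled SD of -0.06 to 0.12. *Dlx1* over *Dlx2* was 0.51 ± 0.15 in CKO and 0.29 ± 0.11 in control, with 1 CKO sample inside the control range. Its difference of 0.22 did not pass (exact p = 0.0571, adjusted 0.0686), although the 95% t interval, 0.0009 to 0.44, excluded 0. With 7 samples, *Atoh7* over *Neurog2* had an adjusted p of 0.129 without CKO replicate 1 and 0.0857 without CKO replicate 3, and *Neurod4* over *Neurog2* had 0.0857 without control replicate 1 or 3 (exact permutation test). In these 4 fits the other passing pairs kept an exact p of 0.0286, and their adjusted p was 0.0571. The difference for *Atoh7* over *Neurog2* was -0.20 without control replicate 1.

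**Figure D3:**
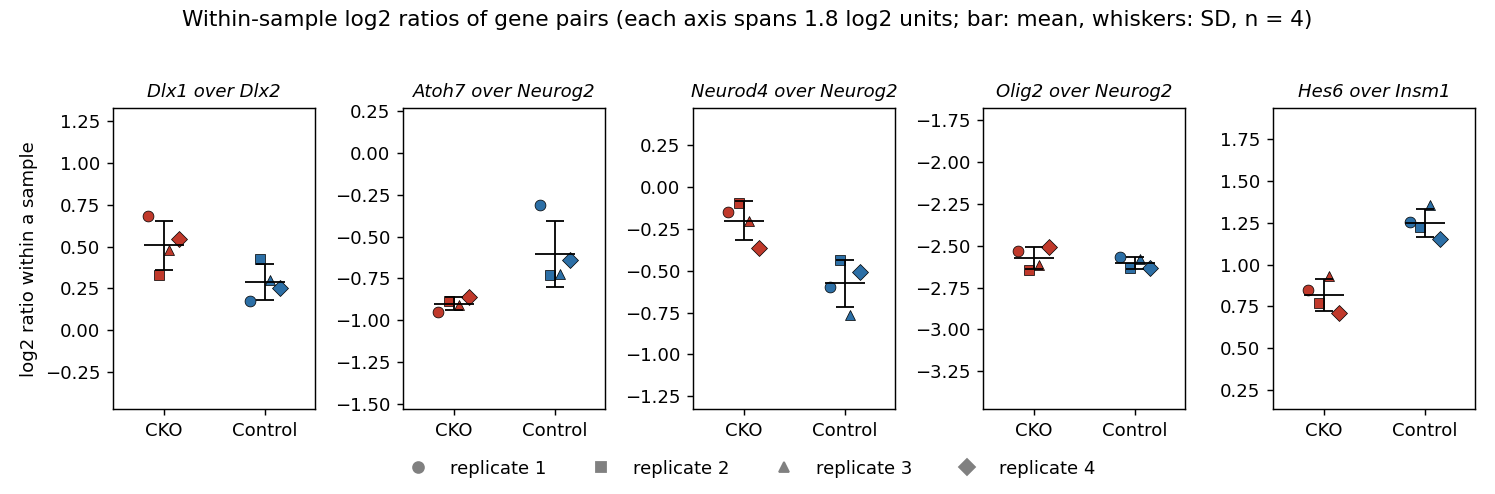
Log2 ratios of normalized counts of 5 gene pairs within each sample (y axis, each panel with its own offset and the same span), CKO left and control right; points are samples, bars means, whiskers SD over 4 samples. The ratio of *Hes6* to *Insm1* is between 0.71 and 0.93 in CKO and between 1.153 and 1.36 in control.

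The genes that share a family or pathway with the 8 factors were counted by direction in the same edgeR fit. Among the proneural and neuronal bHLH genes, 13 of the 21 in the table were tested (4 of them among the 8), and 5 rose, 1 fell and 7 did not pass, with a median log2FC of 0.38 beside 0.01 for all genes. *Atoh8* was the fall, to 117 ± 12.8 normalized counts in CKO, against 424 ± 43.8 in control (edgeR log2FC -1.87, adjusted p = 4.6e-07). *Nhlh1*, a bHLH gene of newborn neurons, rose to 886 ± 69.6 in CKO against 369.9 ± 26.8 in control (edgeR log2FC 1.26, adjusted p = 7.7e-07). *Nhlh2* (log2FC 0.59), *Neurod2* (3.32, with 58.9 in CKO and 5.83 in control) and *Bhlhe23* (1.45) also rose, next to *Neurod4*.

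The E protein partners *Tcf3*, *Tcf4* and *Tcf12* did not pass, with log2FC of -0.30, 0.28 and 0.32. Of the 4 Id genes, 3 fell, and the list of partners and Id genes had 0 rises by edgeR (2 higher at an unadjusted p below 0.05, 2 by DESeq2), 3 falls and 4 that did not pass, with a median log2FC of -0.30. *Id1* was at 394.5 ± 38.8 in CKO against 1073 ± 63.3 in control (edgeR log2FC -1.44, adjusted p = 3.1e-07), *Id2* at 582 ± 38.2 in CKO against 1348 ± 73.0 in control (log2FC -1.21) and *Id3* at 1201 ± 94.3 in CKO against 1897 ± 87.6 in control (log2FC -0.66). Of the Hes and Hey repressors, which include *Hes6*, 8 were tested and 4 fell, 1 rose and 3 did not pass, with a median log2FC of -0.49. *Hes1*, the locus that carries CreERT2 in both genotypes, fell to 358 ± 37.7 in CKO against 1034 ± 86.7 in control (edgeR log2FC -1.53, adjusted p = 4.3e-07), and *Hes5* (-0.73), *Hey1* (-1.06) and *Heyl* (-1.44) fell too, although *Heyl* kept its call in only 3 of the 8 fits with 1 sample left out, those without CKO replicate 1, CKO replicate 3 or control replicate 1. Endothelial cells also use *Id1*, *Id3*, *Hey1* and *Heyl*, and the part of the lower endothelial markers in these falls was not tested. *Hes6* at -0.25 did not pass, and whether its change differs from those of the other repressors was not tested. *Helt* rose, with 278 reads over the CKO samples and 1 over the controls, a ratio of 248 for summed reads over summed size factors, with an exact binomial 95% interval of 44.2 to 9848.

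Of the zinc finger genes, *Insm1* was higher only at the looser cutoff, while *Myt1* (log2FC 0.58), *St18* (0.70) and *Scrt2* (0.46), which act in new neurons, rose; *St18* lost the call without CKO replicate 3 or control replicate 1 or 4, and of the fits with 1 sample left out *Scrt2* kept it only without CKO replicate 1 or control replicate 3. In that list 3 of 8 rose, 0 fell by edgeR (2 at an unadjusted p below 0.05, 1 by DESeq2) and 5 did not pass, with a median of 0.40. Of the Dlx family 4 of 8 were tested, and *Dlx3* was the only fall (log2FC -0.86, edgeR adjusted p = 9.8e-04; it did not pass in any fit with 1 sample left out), *Dlx1*, *Dlx2* and *Dlx1as* not passing, with a median of -0.34; 0 rose by edgeR, also 0 at an unadjusted p below 0.05 and 0 by DESeq2. The untested *Dlx5* had 12 reads over CKO samples and 6 over controls, and *Olig1*, the paralog of *Olig2*, had 9 over CKO samples and 30 over controls. Of 23 other genes of neurogenic progenitors and new neurons, 6 rose, 4 fell and 13 did not pass, with a median of 0.22. *Neurod1* is in this list and in the bHLH list. The rises include neuronal genes such as *Elavl3*, *Elavl4* and *Srrm4*, so the counts do not describe progenitors alone. *Gadd45g* rose to 323 ± 11.02 in CKO against 119 ± 12.1 in control (log2FC 1.44), and *Gadd45a* fell to 1160 ± 32.7 in CKO against 2043 ± 85.0 in control (log2FC -0.82). *Foxn4*, a gene upstream of amacrine and horizontal cell fates, fell (log2FC -0.77), and *Elavl4*, a neuronal RNA-binding protein, rose (0.57). *Dll4*, a Notch ligand that endothelial cells also use, fell to 667.7 ± 69.95 in CKO against 1131 ± 50.5 in control (edgeR log2FC -0.76, adjusted p = 2.2e-05).

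For each of the 8 genes, the gene with the most similar profile over the 8 samples was looked up among 12151 genes that averaged 50 or more normalized counts. These were *Camk2n1* for *Neurog2* (Pearson r = 0.942 on log2 values), *Erc2* for *Neurod4* (0.991), *Megf6* for *Atoh7* (0.981) and *Irx1* for *Olig2* (0.970). They were *Dab2ip* for *Insm1* (0.986), *1810058I24Rik* for *Hes6* (0.990), *Taf9b* for *Dlx1* (0.970) and *Smad3* for *Dlx2* (0.974). The samples share genotype, and with 8 points a best match of this size is a description only. No 2 of the 8 genes shared a match.

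**Figure D4:**
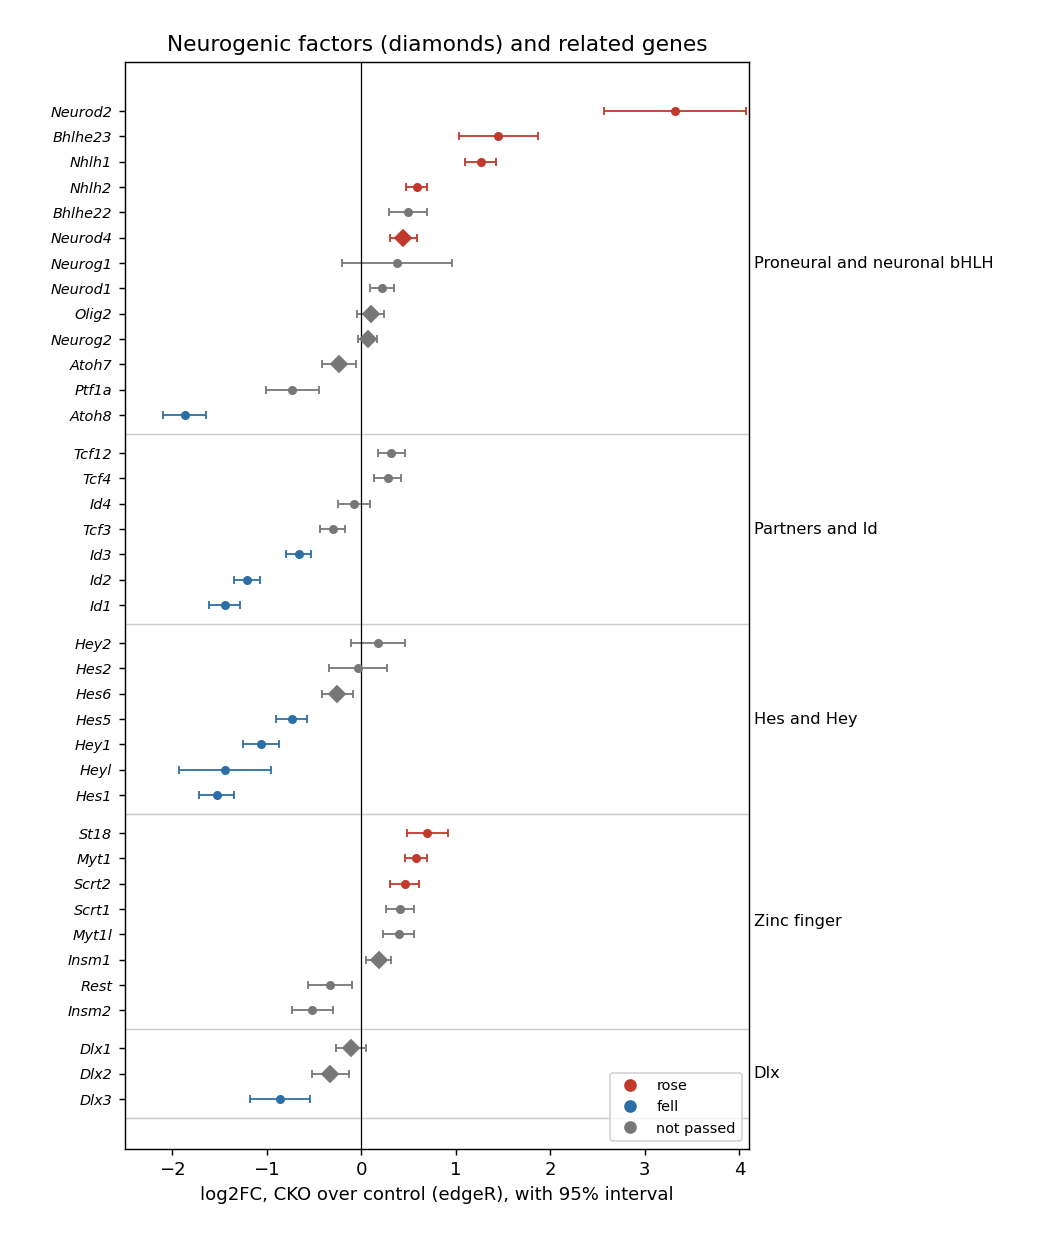
Log2FC (CKO over control) with its 95% interval (x axis) for the tested genes of the bHLH, partner and Id, Hes and Hey, zinc finger and Dlx lists (y axis), without *Helt* and *Dlx1as*; the 8 neurogenic factors are diamonds, red points rose, blue fell and gray did not pass. *Neurod4* is the only red diamond, and *Atoh8* has the lowest point, at -1.87.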

How the data were processed

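The authors deposited raw read counts per gene for 8 poly(A) retina libraries, counted with HTSeq from TopHat 2 alignments on mm10 (Cufflinks is named in the submitters' processing notes too). The sources used here do not state tool versions, annotation release or strand setting. Samples were grouped by the genotype in the labels and none was left out. Nothing in the sources gives the litter of a sample, so p-values measure the spread between these embryos. Testing was limited, by the filter that the study describes, to genes reaching 20 normalized counts in 3 or more samples. It used edgeR 4.0.16 in R 4.3.3 (quasi-likelihood test, TMM scaling, genotype only, Benjamini-Hochberg over all 13891 genes, cutoff 0.001). The study used DESeq2, and it reports fewer features kept and more called at 0.001 than edgeR gave here. Levels are counts scaled by size factors (median of ratios). Counts of 1 to 3 reads have exact binomial intervals at 95%, covering counting error only. RPKM used the union of GENCODE M21 exons, in which 28232 of the 28432 gene IDs were found. Promoter sequences are from RefSeq (GRCm38.p6). Pair ratios used a pseudocount of 1 and scipy 1.17.1. Named genes were the 8 factors, up to 5 called genes a list, ranked by p, and, for each factor, the 1 gene most alike across samples. The 8 genes and the lists were chosen with earlier results of these data known; 1 further gene and the pair that holds it are not reported here. The test was checked on simulated counts, and alternatives were DESeq2 1.42.0, limma voom 3.58.1, other scalings and filters, a cutoff of 0.05, a replicate block and leaving samples out.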

Additional observations from a re-analysis of the deposited data

Results flagged for a closer look

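In 72 groups of 4 samples, the highest or lowest sample was set against the rest by Dixon's test, which flags about 1 in 20 groups by chance, and 7 samples stood apart. Of the 8 factors only *Atoh7* was affected, where control replicate 1 was the highest control at 3029.71 normalized counts. CKO replicate 1 was the lowest CKO sample for *Id1* (336.83) and *Hey1* (421.832) and the highest for *St18* (836.513). CKO replicate 2 was highest for *Gadd45g* (339.434), and CKO replicate 3 lowest for *Elavl4* (5711.55). For *Helt*, control replicate 1 was highest at 1.00688 normalized counts, the only control read of that gene.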

How the results depend on the processing

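No direction of the 8 factors reversed under any alternative. Over all genes, 505 rose and 691 fell, against 1158 and 1232 by DESeq2, 964 and 1091 without the filter, 2207 and 2412 at an adjusted p below 0.05, and 1042 and 1062 without CKO replicate 1 and control replicate 3 together. Leaving out 1 sample gave 264 to 707 rises and 422 to 846 falls. Of the 8 factors, 2 rose and 3 fell at 0.05, 2 rose without CKO replicate 1 and control replicate 3, and 0 to 1 rose with 1 sample left out. The added rise without CKO replicate 1 and control replicate 3 was *Insm1*, for which they are the lowest CKO and highest control samples. In the zinc finger list (3 rises, 0 falls), rises were 5 by DESeq2, 5 with no filter, 6 at 0.05, 6 without the 2 samples and 1 to 4 with 1 left out, and falls were 1, 1, 2, 1 and 0 to 1. In the partner and Id list, 2 rose by DESeq2, 1 with no filter, 2 at 0.05, 1 without the 2 samples and 0 to 1 with 1 left out. The Dlx fall (*Dlx3*) became 2 at 0.05 and 0 without the 2 samples or any 1 sample. The other genes of neurogenic progenitors and new neurons had 10 rises by DESeq2 and 11 at 0.05. The bHLH genes (1 fall) had 2 falls by DESeq2, 2 with no filter, 3 at 0.05, 2 without the 2 samples and 1 to 2 with 1 left out (2 without CKO replicate 1). With 1 sample left out, the pair differences were -0.34 to -0.20 (*Atoh7* over *Neurog2*), -0.47 to -0.40 (*Hes6* over *Insm1*) and 0.31 to 0.43 (*Neurod4* over *Neurog2*), and the 3 pairs missed the threshold without CKO replicate 1 or 3 or control replicate 1 or 3. The cause of these changes was not tested. Equal replicate numbers did not pair the samples (correlation of deviations -0.15 to 0.14 for the 4 same-numbered pairs); with the replicate block 272 genes rose and 404 fell, 1 zinc finger gene rose, no Dlx gene (0) fell and *Neurod4* still passed. At 503 to 7080 reads per sample and 4 embryos a genotype, the 95% intervals of *Neurog2*, *Olig2* and *Dlx1* include 0 and reach 0.17, 0.24 and -0.26, so changes up to these values are compatible with the data.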
